A study of Mus musculus with 12 samples.

Results

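The genes examined were 10 mouse lysosomal genes, 8 that encode hydrolases of the lysosome (Ctsb, Ctsl, Ctsh, Ctsz, Ctsc, Ctsd, Ctsa and Lgmn) and 2 that encode its main membrane glycoproteins (Lamp1 and Lamp2). They were chosen by name, with earlier results of these data known. All 10 were present among the 16805 genes counted in neutrophils and the 16954 counted in monocytes. Expression was measured by RNA-seq in spleen cells of wild-type, tumor-bearing mice around cryo-thermal therapy (CTT), in which a tumor is frozen and then heated. There were 4 groups of 3 libraries each. The first pair were cells bound by PE anti-Ly6G, an antibody to a surface protein of mouse neutrophils, from mice 12 h after CTT and from tumor-bearing mice without CTT (control). The second pair were cells bound by PE anti-CCR2, an antibody to the chemokine receptor that marks inflammatory monocytes, taken from mice 5 days after CTT that were also given anti-Ly6G, and from mice 5 days after CTT alone. Both monocyte groups had thus received CTT, and untreated monocytes were not analysed here. The libraries are labelled as biological replicates without saying how many mice each held, and a p-value here therefore speaks of the scatter among these libraries, which may be technical.

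Lysosomal proteases are made as inactive precursors and are activated in the acidic lumen of endosomes and lysosomes, where they degrade engulfed and cellular protein. In phagocytes they digest what has been taken up, trim antigens and the invariant chain for presentation on class II MHC, and activate other proteases. The lumen is bounded by a membrane whose most abundant proteins are the heavily glycosylated LAMP proteins. Many genes of the lysosome carry a CLEAR element, a sequence around CACGTG that is bound by TFEB and its relatives MITF and TFE3.

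The libraries held 30942849 to 34935547 counted reads in neutrophils and 31865982 to 35956571 in monocytes. Control replicate 1 of the neutrophils stood apart, with a correlation of log2 expression of 0.916 to 0.958 with the other libraries of its table. Its 11 erythroid markers added up to 14650 CPM (counts scaled to a common library size), where the other control libraries had 829 and 2473 CPM. Markers of other cells were present in each selection. The 12 neutrophil markers summed to 7294 to 11970 CPM in CTT neutrophils and to 3903 to 5791 CPM in control neutrophils. The same markers summed to 12630 to 16990 CPM in monocytes with anti-Ly6G and to 4645 to 6326 CPM in monocytes with CTT alone, so their level did not separate the cells selected by anti-Ly6G from those selected by anti-CCR2. The 14 macrophage markers summed to 3345 to 4347 CPM in CTT neutrophils and 3450 to 3705 CPM in control neutrophils. In monocytes they summed to 8580 to 9443 CPM with anti-Ly6G and 11030 to 18420 CPM with CTT alone. The 8 B cell markers summed to 5880 to 6487 CPM in CTT neutrophils. In control replicates 1, 2 and 3 they were at 2911, 6578 and 7333 CPM, beside 3903, 5791 and 4266 CPM for the neutrophil markers. Ly6g, which encodes the protein bound in the neutrophil selection, averaged 19.2 CPM in CTT neutrophils and 11.8 CPM in control neutrophils. No marker of any of the 8 cell types was at 0 counts in all libraries of a group. The groups are called neutrophils and monocytes below, as labelled.

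The sequences before the start sites of Lamp1, Lamp2 and Lgmn are shown because Lamp1 and Lamp2 encode related proteins yet had unlike fold changes, and because Lgmn and Lamp2 gave the smallest p-values of the 10 genes in both comparisons. Each is the 250 bases upstream of the start of the RefSeq gene in GRCm38.p6, 5′ to 3′ on the gene's strand, with CACGTG in capitals. Lamp1 lies at chr8:13158911-13159160 on the plus strand, Lamp2 at chrX:38456461-38456710 on the minus strand, and the first of 2 listed starts of Lgmn at chr12:102439729-102439978 on the minus strand.
Lamp1: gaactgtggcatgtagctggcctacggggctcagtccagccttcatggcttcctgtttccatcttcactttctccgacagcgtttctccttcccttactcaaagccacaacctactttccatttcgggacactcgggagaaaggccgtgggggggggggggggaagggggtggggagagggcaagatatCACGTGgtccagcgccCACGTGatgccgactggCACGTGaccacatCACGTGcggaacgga
Lamp2: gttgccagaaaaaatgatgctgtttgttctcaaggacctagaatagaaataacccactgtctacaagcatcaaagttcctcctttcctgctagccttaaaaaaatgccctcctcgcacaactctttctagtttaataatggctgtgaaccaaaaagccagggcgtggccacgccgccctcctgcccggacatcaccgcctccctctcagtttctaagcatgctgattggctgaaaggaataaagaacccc
Lgmn: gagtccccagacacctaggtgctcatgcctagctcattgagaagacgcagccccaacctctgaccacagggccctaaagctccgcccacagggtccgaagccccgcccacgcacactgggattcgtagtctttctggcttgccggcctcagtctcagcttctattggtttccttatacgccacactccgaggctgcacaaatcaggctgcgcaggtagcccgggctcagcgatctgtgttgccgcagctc
The Lamp1 window held 4 copies of CACGTG, at 61, 45, 28 and 15 bases before the start. The windows of Lamp2 and of this Lgmn start held none, whereas the window of the other Lgmn start held 1. The bases after that other start were found in no GENCODE M21 transcript of Lgmn, unlike those of every other window matched. RefSeq windows were matched for 8 of the 10 genes, 10 windows in all. CACGTG, which reads the same on both strands, was in 5 of these 10 windows (50%) and in 6.02% of 32851 mouse promoter windows of the same length. The longer TCACGTG, which overlaps it, was sought on both strands and was in 4 of the 10 windows (40%) and 3.13% of all windows. Without the second Lgmn start, CACGTG was in 4 of 9 windows and TCACGTG in 3 of 9. Of the windows with CACGTG, those of Ctsd and Lamp1 lie upstream of the whole gene. Those of Ctsl and of the second starts of Ctsa and Lgmn lie within the span of the gene. The full palindrome of the CLEAR element, CACGTG with GT before and AC after it, was in 0 of the 10 windows and in 0.24% of all. These matches describe the letters in the windows only, and no binding was measured.

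Per unit of gene length, Ctsb was the most abundant of the 10 genes in every group and Ctsl the least. Cathepsin B is a cysteine protease that acts as both endopeptidase and carboxydipeptidase. Its mean FPKM (counts per gene length and library total) was 680 ± 86.3 in CTT neutrophils and 674 ± 89.2 in control neutrophils (SD, n = 3 each). In monocytes it was 1515 ± 128 with anti-Ly6G and 1887 ± 292 with CTT alone (SD, n = 3 each). By mean FPKM it ranked 21 and 14 among all genes in these monocyte groups, and 97 and 99 in CTT and control neutrophils. Ctsd, the aspartic protease cathepsin D, was second in every group, at 364 ± 53.8 FPKM in CTT neutrophils and 367 ± 77.2 in control neutrophils. Its level was 767 ± 87.4 FPKM in monocytes with anti-Ly6G and 828 ± 154 in monocytes with CTT alone. Ctsl, a cysteine endopeptidase, was lowest, with group means of 9.11 to 22.0 FPKM. The ranges of Ctsb, Ctsd and the next gene, Ctsz, were apart in each of the 4 groups, as were those of the lowest 4 genes, Ctsa, Ctsc, Lamp2 and Ctsl. Between them, Ctsz, Lamp1, Ctsh and Lgmn lay within 174 to 352 FPKM on average. Their order varied, and several neighbours overlapped, for example Ctsz and Lgmn in CTT neutrophils and Lamp1 and Lgmn in monocytes with CTT alone. The order of the 10 genes in FPKM rests on the gene lengths used for it, which were not checked. In CPM, which leaves length out, Ctsc averaged 496 and 367 in CTT and control neutrophils, beside 408 and 340 for Ctsz. In monocytes with anti-Ly6G and with CTT alone, Ctsc averaged 780 and 644 CPM, beside 512 and 477 CPM for Ctsz. Together the 10 genes took 0.498% of counts in CTT neutrophils, 0.452% in control neutrophils, 0.816% in monocytes with anti-Ly6G and 0.89% in monocytes with CTT alone.

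Both cell types were sampled after CTT alone, although with another antibody, at another time and in another table, so that their levels are set side by side without a test. Mean FPKM in monocytes over that in neutrophils was 2.78 for Ctsb and 2.27 for Ctsd. It was 1.15 to 1.66 for Ctsa, Lgmn, Ctsz, Lamp2, Ctsc, Lamp1 and Ctsl, in that order. Ctsh, a cysteine aminopeptidase, was the gene with the ratio below 1, at 0.879. Ctsb made up 45.9% of the summed FPKM of the 10 genes in these monocytes and 30.5% in these neutrophils. The macrophage markers, given above, and the inflammatory monocyte and erythroid markers summed higher in these monocytes than in these neutrophils. The neutrophil, nonclassical monocyte, B cell and T and NK cell markers summed lower in these monocytes, and the dendritic cell markers overlapped. The part of any of these cells in these levels was not tested.

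**Figure D1:**
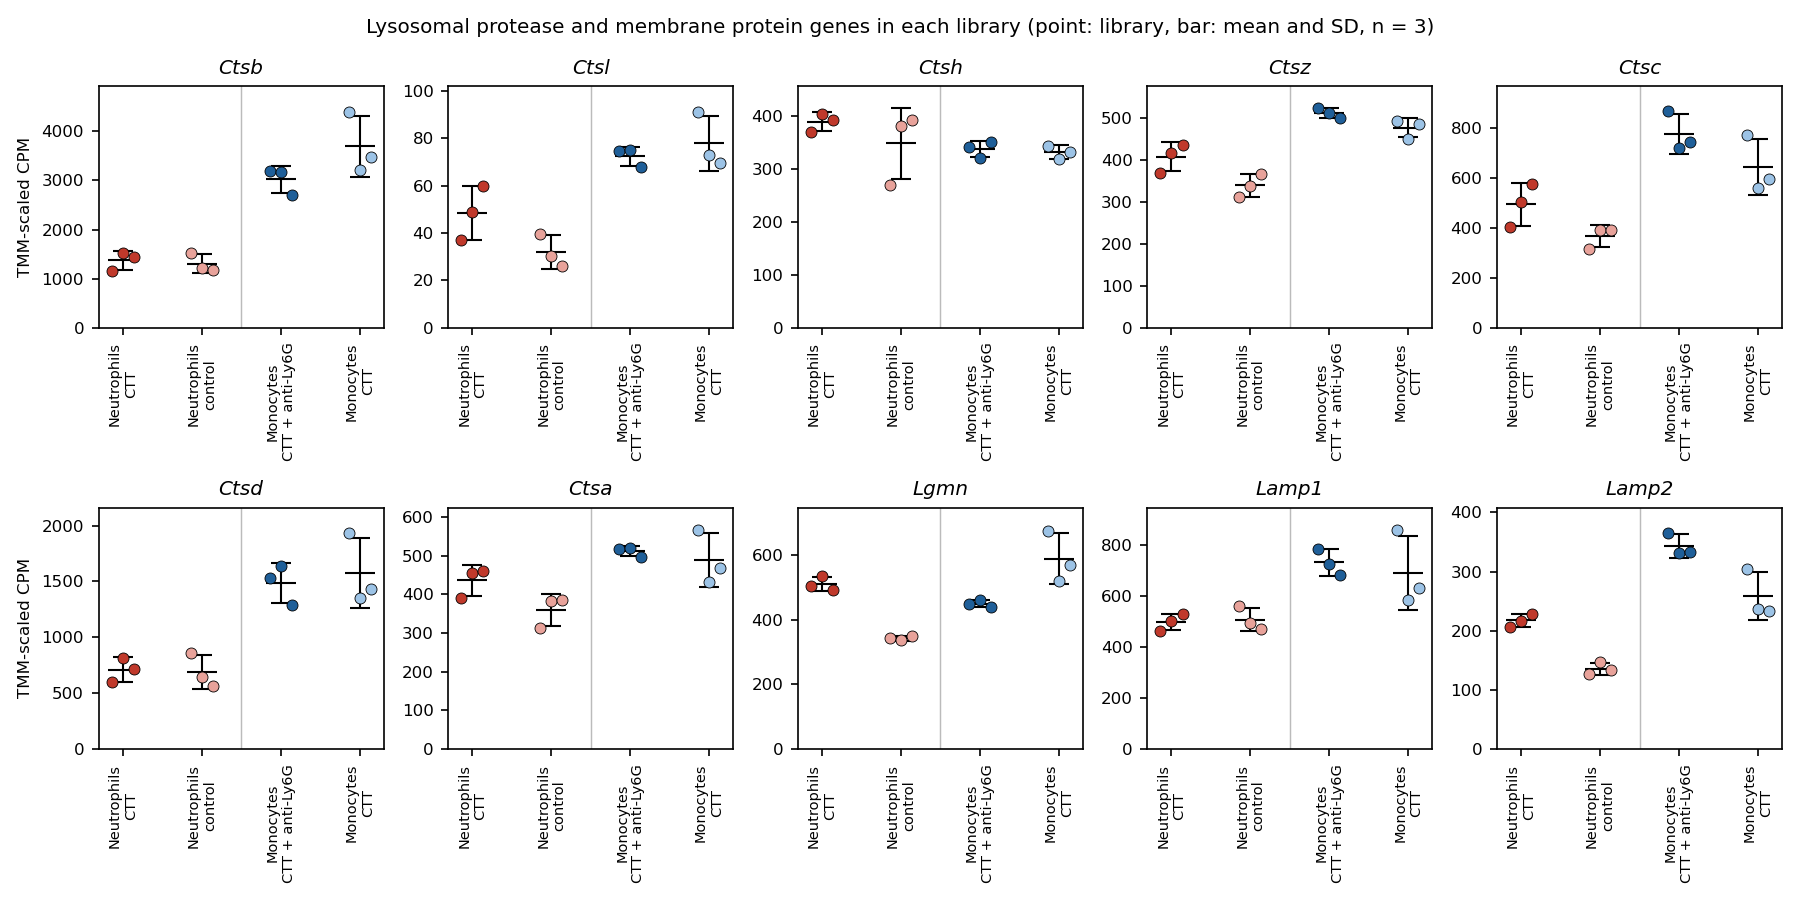
TMM-scaled CPM (y axis, from 0) of each of the 10 genes in the 12 libraries, with the mean and SD of 3 libraries per group; a grey line parts neutrophils from monocytes. Lgmn and Lamp2 libraries of CTT neutrophils all lie above the control libraries, and in monocytes with anti-Ly6G Lgmn lies below and Lamp2 above the libraries with CTT alone.

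In neutrophils 12 h after CTT, Lamp2 and Lgmn had the smallest p-values of the 10 genes, at 1.6 and 1.49 times the control level, without passing an adjusted p of 0.05 in edgeR's quasi-likelihood test over 13058 genes. None of the 10 genes passed it, and 0.567% of all genes tested were called higher and 0% lower. At an unadjusted p below 0.05 the edgeR test held 4 of the 10 genes, against 14% of all genes tested. DESeq2 called 2 of the 10 (Lamp2 and Lgmn) and limma-voom 0. Over all genes DESeq2 called 441 higher and 106 lower, and limma-voom 69 and 0, against 74 and 0 in edgeR. Positive log2 fold changes were found for 9 of the 10 genes, with a median of 0.27 beside −0.02 over all genes. On the scale of TMM-scaled CPM, the groups did not overlap for 5 of the 10 genes (50%), against 24.7% of all genes tested. Every CTT library was then above every control library, as in 13.6% of all genes, and for 0 of the 10 genes below, as in 11% of all genes. In FPKM, which scales by library totals and was compared after the data were seen, the groups stayed apart for 2 of the 10 genes (20%), Lgmn and Lamp2, against 26.1% of all genes, while Ctsa, Ctsc and Ctsz overlapped. In RNA from a bulk selection, more cells of a type and more RNA per cell cannot be told apart.

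Among the cysteine cathepsins, Ctsc, which activates serine proteases of neutrophil granules by removing dipeptides, had 404, 506 and 577 CPM in CTT libraries and 316, 393 and 391 CPM in control libraries. Every CTT library lay above the control libraries, the lowest by a narrow margin, whereas in FPKM the lowest CTT library, at 36.4, fell just under the highest control library, at 36.45. Its log2 fold change was 0.43 ± 0.17 (SE), with an adjusted p of 0.347 in edgeR. Ctsz, a carboxypeptidase also known as cathepsin X, had 369, 417 and 437 CPM after CTT and 313, 339 and 367 CPM in the control. The groups nearly touched in CPM and overlapped in FPKM, with 258 in the lowest CTT library and 261 in the highest control library. The log2 fold change of Ctsz was 0.26 ± 0.12 (edgeR adjusted p = 0.372). Ctsl had 37.1, 48.9 and 59.9 CPM in CTT libraries and 39.8, 30.2 and 26.0 CPM in control libraries. Control replicate 1 lay above the lowest CTT library. The log2 fold change of Ctsl was 0.60 ± 0.23 (edgeR adjusted p = 0.346), and without that control library it was 0.80 with an adjusted p of 0.0946. Ctsb had 1156, 1522 and 1439 CPM after CTT and 1525, 1221 and 1173 CPM in the control. Ctsh had 369, 404 and 393 CPM after CTT and 270.0, 381 and 392.3 CPM in the control. The groups overlapped for both, with log2 fold changes of 0.07 ± 0.16 for Ctsb and 0.16 ± 0.16 for Ctsh and edgeR adjusted p-values of 0.846 and 0.64.

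The remaining hydrolases belong to other protease classes. Ctsd had 600, 819 and 718 CPM in CTT libraries and 861, 649 and 561 CPM in control libraries, overlapping throughout, with a log2 fold change of 0.05 ± 0.20 (edgeR adjusted p = 0.923). Ctsa, a serine carboxypeptidase that also protects lysosomal neuraminidase and beta-galactosidase, had 391, 456 and 461 CPM after CTT and 313, 383 and 384 CPM in the control. Its groups were apart in CPM but overlapped in FPKM, with 107 in the lowest CTT library and 108 in the highest control library. The log2 fold change of Ctsa was 0.28 ± 0.14 (edgeR adjusted p = 0.385). Lgmn encodes legumain, which cuts after asparagine and processes cathepsins B, L and H to their mature forms. It had 504, 535 and 493 CPM after CTT and 343, 336 and 349 CPM in the control. The 3 control libraries lay close together and well below every CTT library. It differed by 0.58 ± 0.10 on the log2 scale, with an unadjusted p of 0.000809 and an adjusted p of 0.0823 in edgeR.

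The pair of membrane protein genes had unlike values, and the difference between them was not tested. Lamp1 had 465, 504 and 529 CPM in CTT libraries and 560.0, 496 and 470 CPM in control libraries. Lamp2, whose product also serves as the receptor of chaperone-mediated autophagy in one of its isoforms, had 206, 217 and 229 CPM in CTT libraries and 127, 147 and 133 CPM in control libraries. The Lamp1 groups overlapped, whereas all Lamp2 values after CTT were above all control values. On the log2 scale Lamp1 differed by −0.03 ± 0.12 (edgeR adjusted p = 0.928). For Lamp2 it was 0.68 ± 0.11, with an unadjusted p of 0.000488 and an adjusted p of 0.0708 in edgeR. Leaving out control replicate 1, the library that stood apart, took Lamp2 to a log2 fold change of 0.64 and Lgmn to 0.58, each with an edgeR adjusted p of 0.0152. In that fit 1.93% of all genes were called higher and 0.233% lower. Leaving out any other library gave edgeR adjusted p-values of 0.158 to 0.325 for Lamp2 and 0.16 to 0.333 for Lgmn. The counts do not separate the isoforms of Lamp2.

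Of the other lysosomal genes, none was called in CTT neutrophils, whether cathepsins, acid hydrolases, membrane proteins, subunits of the proton pump (the vacuolar ATPase), sorting factors, MiT/TFE transcription factors, cystatins or class II loading partners. In edgeR 0 of 108 tested genes of these 8 lists passed, beside 0.567% of all genes called higher and 0% lower. At an unadjusted p below 0.05 the edgeR test held 14 of them, against 14% of all genes tested. DESeq2 called 4 higher and 0 lower, beside 441 and 106 over all genes. Medians of the log2 fold change ran from −0.04 for 13 sorting genes to 0.29 for the 4 MiT/TFE genes in 7 of the lists. The cystatins, which inhibit cysteine cathepsins, had a median of 1.01 over 6 tested genes, 5 positive and 1 negative. The negative one was Cst3, the most abundant, at 490 CPM after CTT and 561 CPM in the control (log2 fold change −0.20). The highest fold changes were those of Stfa1 and Stfa2, near the floor at 1.07 and 0.553 CPM after CTT and 0.199 and 0.072 CPM in the control. Stfa2l1, a stefin of this list, had 12.6, 24.5 and 14.8 CPM in CTT libraries and 5.67, 7.60 and 4.60 CPM in control libraries. The groups of Stfa2l1 did not overlap (edgeR adjusted p = 0.117), but stefin genes have near-identical copies, so their values are uncertain. Beside these values, 2 of the 12 neutrophil markers rose, with a median log2 fold change of 0.91, and 1 of the 9 inflammatory monocyte markers rose. Without control replicate 1, 4 of the neutrophil markers, 2 of the acid hydrolases and 1 of the inflammatory monocyte markers were called higher, and 1 sorting gene and 1 B cell marker lower. None of the 14 macrophage markers was called in edgeR, with 2 at an unadjusted p below 0.05, 1 called by DESeq2 and a median of 0.09. The part of these markers in the values of the 10 genes was not tested.

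**Figure D2:**
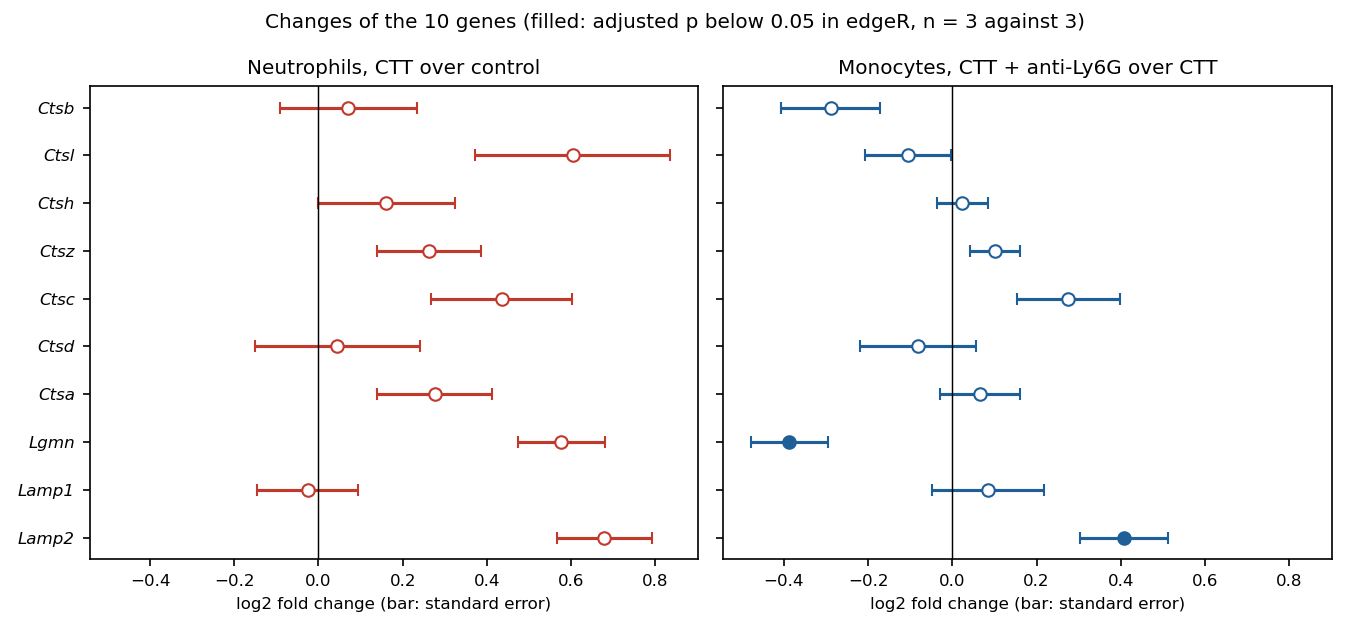
Log2 fold change (x axis) and its standard error for the 10 genes (y axis), in neutrophils with CTT over control (left) and in monocytes with CTT and anti-Ly6G over CTT alone (right); filled points have an adjusted p below 0.05 in edgeR. No neutrophil point is filled, and the 2 filled monocyte points are Lgmn at −0.39 and Lamp2 at 0.41.

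With anti-Ly6G, monocytes had less Lgmn, at 0.765 of its level with CTT alone, and more Lamp2, at 1.33 times that level. These 2 of the 10 genes passed an adjusted p of 0.05 in edgeR over 13294 genes, 1 in each direction. Of all genes tested, 10.2% were called higher and 5.12% lower, so that 1 of 10 in each direction is near the background. At an unadjusted p below 0.05 there were 3 of the 10 genes, against 31% of all genes. The groups did not overlap for 4 of the 10 genes (40%), 2 higher and 2 lower, in CPM as in FPKM. Over all genes this held for 36% in CPM and 35.6% in FPKM. In CPM 20.6% were higher and 15.4% lower. Positive log2 fold changes numbered 6 and negative ones 4, and their median was 0.04 beside 0.00 over all genes.

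Lgmn had 450, 461 and 440.0 CPM in libraries with anti-Ly6G and 676, 521 and 571 CPM in libraries with CTT alone. The anti-Ly6G libraries lay within a narrow range below every CTT library, of which replicate 1 was highest. The log2 fold change was −0.39 ± 0.09, with an adjusted p of 0.024 in edgeR. It kept its sign in each of the 14 alternatives, and the call was lost in 4 of 6 fits that left out a library, with adjusted p-values of 0.0666 to 0.0837. Without CTT replicate 1, the highest library, Lgmn was at −0.28 and still called (adjusted p = 0.0095).

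Lamp2 had 366, 331 and 333 CPM with anti-Ly6G and 305, 237 and 234 CPM with CTT alone. All anti-Ly6G libraries were above all CTT libraries, and replicate 1 was highest in each group. Its log2 fold change was 0.41 ± 0.10, with an adjusted p of 0.0319 in edgeR. Leaving out CTT replicate 1 gave 0.54 and an adjusted p of 0.000343. Leaving out any other library lost the call, with adjusted p-values of 0.0722 to 0.136. Lamp1 had 787, 728 and 683 CPM with anti-Ly6G and 858, 583 and 632 CPM with CTT alone. The groups overlapped, since CTT replicate 1 was the highest of all 6 libraries. The log2 fold change of Lamp1 was 0.08 ± 0.13 (edgeR adjusted p = 0.711), and without CTT replicate 1 it was 0.27 with an adjusted p of 0.0241.

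The cysteine cathepsins did not move one way in monocytes. Ctsb had 3197, 3173 and 2709 CPM with anti-Ly6G and 4398, 3224 and 3469 CPM with CTT alone. All anti-Ly6G libraries were below all CTT libraries, of which replicate 2 came closest at 3224 CPM, and the log2 fold change of −0.29 ± 0.12 did not pass (edgeR adjusted p = 0.132). Ctsc had 871, 722 and 746 CPM with anti-Ly6G and 772, 563 and 598 CPM with CTT alone. CTT replicate 1 overlapped the anti-Ly6G libraries. The log2 fold change of Ctsc was 0.27 ± 0.12 (edgeR adjusted p = 0.164), and without CTT replicate 1 it was 0.42 with an adjusted p of 0.00552. Ctsz had 524, 512 and 501 CPM with anti-Ly6G and 494, 451 and 486 CPM with CTT alone, apart by a small margin, with a log2 fold change of 0.10 ± 0.06 (edgeR adjusted p = 0.284). Ctsl and Ctsh overlapped between the groups. Ctsl was at 67.8 to 75.0 CPM with anti-Ly6G and 69.7 to 91.3 CPM with CTT alone, a log2 fold change of −0.10 ± 0.10 (edgeR adjusted p = 0.535). Ctsh was at 320 to 350 CPM with anti-Ly6G and 318 to 344 CPM with CTT alone, a log2 fold change of 0.02 ± 0.06 (edgeR adjusted p = 0.826).

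Ctsd and Ctsa also overlapped. Ctsd had 1528, 1637 and 1293 CPM with anti-Ly6G and 1932, 1353 and 1435 CPM with CTT alone, with a log2 fold change of −0.08 ± 0.14 (edgeR adjusted p = 0.728). Ctsa had 516, 520 and 496 CPM with anti-Ly6G and 565, 430 and 469 CPM with CTT alone, with a log2 fold change of 0.06 ± 0.10 (edgeR adjusted p = 0.685). CTT replicate 1 was the highest of all 6 libraries for Ctsa, Ctsb, Ctsd, Ctsl, Lgmn and Lamp1. That library also had the highest sum of the 14 macrophage markers, 18420 CPM, while the other libraries with CTT alone had 11030 and 12580 CPM. Among the libraries with CTT alone it was highest too for neutrophil (6326 CPM), inflammatory monocyte (5661), nonclassical monocyte (1530) and erythroid markers (2035). It was lowest of them for B cell (3595 CPM) and T and NK cell markers (109). The part of any of these cells in the values of the 10 genes was not tested.

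Macrophage markers fell with anti-Ly6G in monocytes, 10 of 14 called lower and 0 higher, with a median log2 fold change of −0.72. Without CTT replicate 1, 11 were called lower, with a median of −0.44. Leaving out 1 anti-Ly6G library at a time left 3 called lower. Neutrophil markers rose, 10 of 12 called higher and 0 lower, with a median of 1.61, and 7 of 9 inflammatory monocyte markers rose while 1 fell. Ly6g itself averaged 56.1 CPM with anti-Ly6G and 13.6 CPM with CTT alone, and Ccr2, the selection marker, averaged 512 CPM with anti-Ly6G and 216 CPM with CTT alone. The part of these markers in the values of Lgmn, Lamp2 and the other genes was not tested.

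The other lysosomal genes were mixed in monocytes, with 18 of 109 tested called higher and 12 lower with anti-Ly6G in edgeR. Over all genes tested, 10.2% were called higher and 5.12% lower, and the counts of each list below stand beside these shares. Of 7 other cathepsins, Ctso and Ctsf, both cysteine proteases, fell to 77.2 ± 5.89 and 9.43 ± 0.169 CPM with anti-Ly6G, against 105 ± 7.42 and 18.0 ± 4.88 CPM with CTT alone (SD, n = 3; edgeR adjusted p = 0.00686 and 0.0095). Ctsg, a serine protease of neutrophil granules, rose to 61.8 ± 21.2 CPM, against 15.5 ± 11.1 CPM (log2 fold change 2.00 ± 0.43, edgeR adjusted p = 0.0167). The call on Ctsg was lost without anti-Ly6G replicate 1 (adjusted p = 0.0668) or CTT replicate 3 (0.0752). Ctss, which trims the invariant chain, averaged 923 CPM with anti-Ly6G and 927 CPM with CTT alone and was not called (edgeR adjusted p = 0.97).

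Among 34 acid hydrolases and their activators 2 rose and 6 fell, with a median log2 fold change of −0.15. Acp2, the lysosomal acid phosphatase, fell by 0.62 ± 0.11 on the log2 scale and Acp5, the tartrate-resistant acid phosphatase, by 0.45 ± 0.09 (edgeR adjusted p = 0.00728 and 0.0107). Galns, a sulfatase that degrades keratan sulfate, rose by 0.55 ± 0.10 (edgeR adjusted p = 0.00842). The number that fell ranged over 3 to 9 when 1 library was left out. Among 20 membrane proteins 1 rose and 0 fell, namely Cd63, a tetraspanin of late endosomes, with a log2 fold change of 0.93 ± 0.12 (edgeR adjusted p = 0.00144).

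Of 16 subunits of the vacuolar ATPase, which acidifies the lysosome, 5 rose and 0 fell, with a median of 0.18. Atp6v1b2 and Atp6v1a, which form the catalytic head of the pump, rose by 0.55 ± 0.08 and 0.54 ± 0.09 on the log2 scale, and Atp6v1g1, a stalk subunit, by 0.38 ± 0.07 (edgeR adjusted p = 0.00303, 0.00608 and 0.00634). The number that rose was 8 without CTT replicate 1 and 3 without CTT replicate 3 or without anti-Ly6G replicate 1 or 2. Of 13 sorting genes, 2 rose and 0 fell. Nagpa, which uncovers the mannose phosphate tag of lysosomal enzymes, rose by 0.39 ± 0.09 and Ap1s1, an adaptor subunit, by 0.37 ± 0.11 (edgeR adjusted p = 0.0249 and 0.0484). Nagpa lost its call in 4 of the fits that left out a library, and Ap1s1 lost it in 10 of its 14 alternatives. None of the 4 MiT/TFE factors was called in edgeR, with 2 at an unadjusted p below 0.05, Tfec at 0.67 ± 0.20 (adjusted p = 0.0513) and Tfe3 at 0.21 ± 0.09 (adjusted p = 0.129). DESeq2 and limma-voom called Tfec, with adjusted p-values of 0.0102 and 0.0367.

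Cystatins rose in 6 of 7 tested genes, with a median log2 fold change of 1.51. The leading ones were stefins, namely Stfa1 at 4.08 CPM with anti-Ly6G and 0.648 CPM with CTT alone, Stfa2l1 at 27.1 and 11.1 CPM, and Stfa2 at 3.31 and 0.454 CPM in these groups. Their edgeR adjusted p-values were 0.000557, 0.0018 and 0.00355, with the uncertainty over near-identical copies given above. Cst3, the secreted cystatin C and the most abundant of them, averaged 722 CPM with anti-Ly6G and 710 CPM with CTT alone (edgeR adjusted p = 0.879). Of 8 class II genes and their loading partners, 4 fell and 1 rose. Cd74, the invariant chain, averaged 5404 ± 424 CPM with anti-Ly6G and 7071 ± 406 CPM with CTT alone, a log2 fold change of −0.39 ± 0.07 (edgeR adjusted p = 0.00967). H2-Ab1, a class II chain, averaged 1919 ± 160 and 2403 ± 152 CPM in these groups (log2 fold change −0.33 ± 0.08, edgeR adjusted p = 0.0249). Both lost the call under limma-trend on FPKM and without anti-Ly6G replicate 1, and H2-Ab1 also without anti-Ly6G replicate 2, CTT replicate 2 or CTT replicate 3. Ifi30, a thiol reductase of the lysosome, rose by 0.40 ± 0.07 (edgeR adjusted p = 0.00616). The number of class II genes that fell was 0 to 6 when 1 library was left out. B cell markers, whose cells also carry class II, had negative log2 fold changes in 8 of 8 genes, with a median of −0.47. In edgeR 8 had an unadjusted p below 0.05 and 2 were called lower, and without CTT replicate 1 all 8 were called lower.

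**Figure D3:**
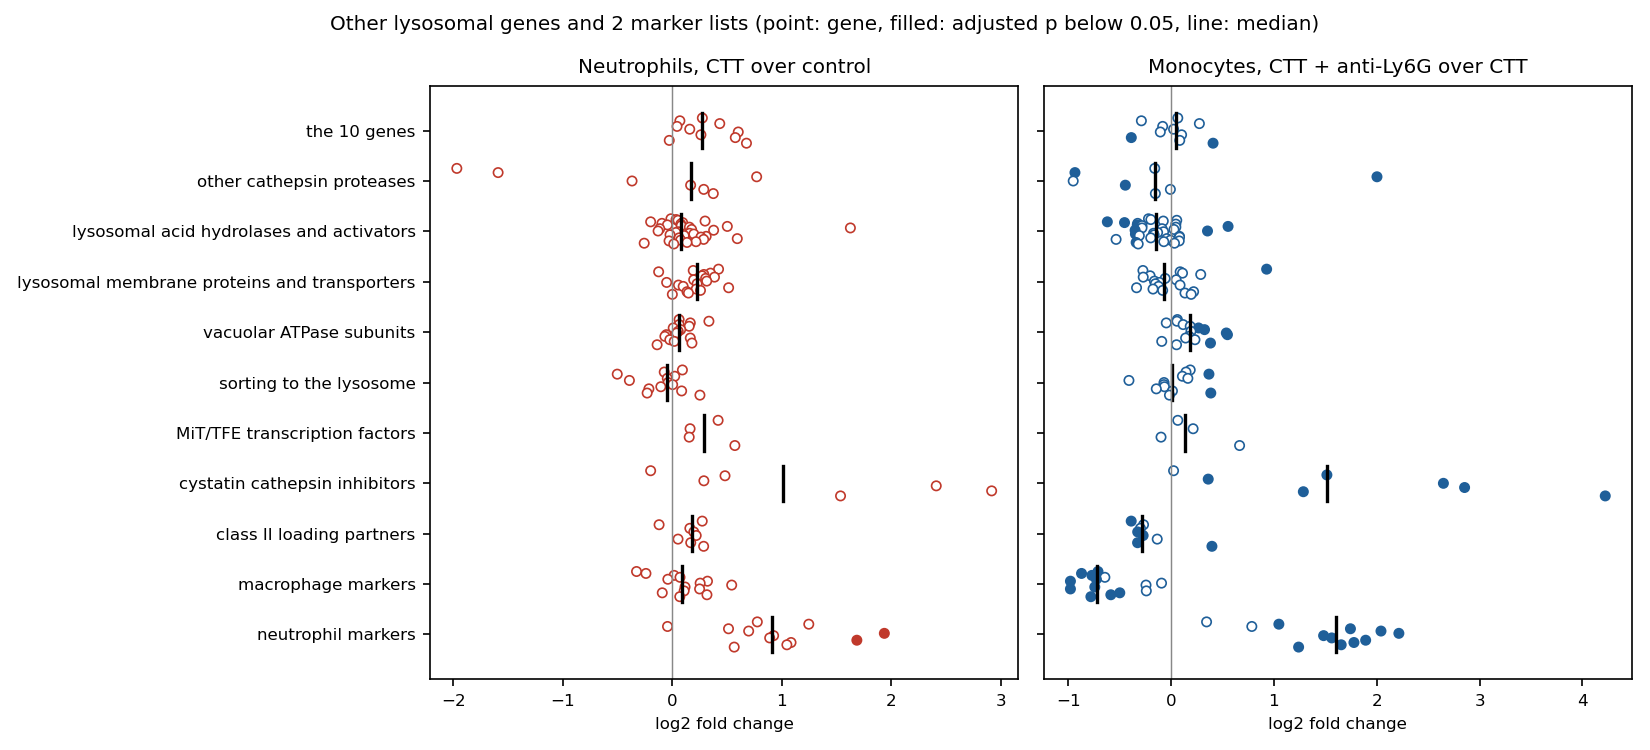
Log2 fold change (x axis) of every tested gene of the 10-gene set, 8 lists of other lysosomal genes and 2 marker lists (y axis), in neutrophils with CTT over control (left) and monocytes with CTT and anti-Ly6G over CTT alone (right); filled points have an adjusted p below 0.05 and black lines are medians. In monocytes the macrophage markers have a median of −0.72 and the neutrophil markers and cystatins medians of 1.61 and 1.51, while the 10 genes have a median of 0.04.

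Ratios between genes within a library do not depend on how libraries are scaled. Lamp2 over Lamp1 in FPKM was 0.146, 0.142 and 0.143 in CTT neutrophils and 0.0748, 0.0974 and 0.0936 in control neutrophils. In monocytes it was 0.153, 0.150 and 0.160 with anti-Ly6G and 0.117, 0.134 and 0.122 with CTT alone. The ratio was thus higher in every CTT neutrophil library than in any control library, and higher in every anti-Ly6G monocyte library than in any with CTT alone. Lgmn over Lamp2 was 8.26, 8.32 and 7.27 in CTT neutrophils and 9.09, 7.74 and 8.83 in control neutrophils, which overlapped. In monocytes it was 4.15, 4.70 and 4.46 with anti-Ly6G and 7.48, 7.42 and 8.23 with CTT alone, without overlap. These ratios were picked after the values of the genes were known and are given without a test.

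**Figure D4:**
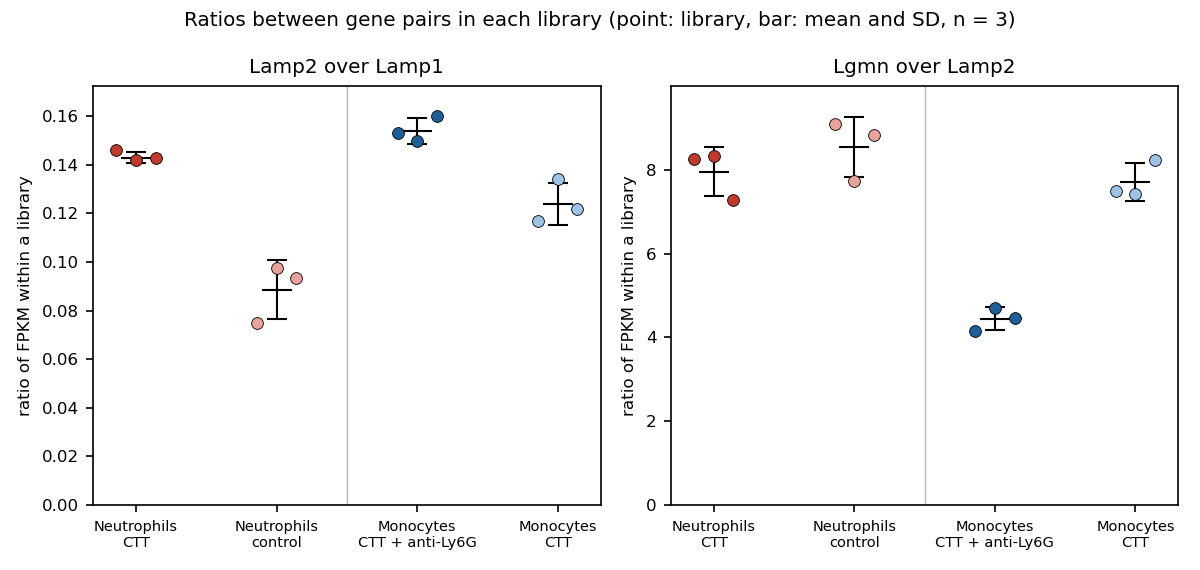
Ratio of FPKM within each library (y axis, from 0) for Lamp2 over Lamp1 (left) and Lgmn over Lamp2 (right), with the mean and SD of 3 libraries per group. Lamp2 over Lamp1 is 0.142 to 0.146 in CTT neutrophils and 0.0748 to 0.0974 in controls; Lgmn over Lamp2 is 4.15 to 4.70 in monocytes with anti-Ly6G and 7.42 to 8.23 with CTT alone.

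Across the 2 comparisons, which share no library, 5 of the 10 genes had log2 fold changes of the same sign and 5 of opposite sign. Lamp2 was positive in both, at 0.68 and 0.41, and Lgmn was 0.58 in neutrophils and −0.39 in monocytes. The difference between the comparisons was not tested, since the treatments compared are not the same.

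Among themselves, the profiles of the 10 genes were compared by the root mean square difference of log2 CPM, each centred on its mean over the 6 libraries of a table. In neutrophils Ctsa and Ctsz were the closest pair, at 0.0546, Ctsb and Ctsd were at 0.0768 and Lgmn and Lamp2 at 0.108, while Lamp1 and Lamp2 were at 0.371. In monocytes Ctsh and Ctsz were closest, at 0.0624, and Ctsb and Lgmn were at 0.0852. Lgmn and Lamp2 were the least alike pair there, at 0.404. Of 9052 neutrophil genes with a mean of at least 10 CPM, those nearest to the median profile of the 10 genes were Ifi30, Smpdl3a, Tpcn2, Kbtbd7 and Swt1, at 0.0321 to 0.04. Of 9340 monocyte genes they were Ctss, Ifnar2, Ech1, Nucb2 and Rtn4, at 0.0143 to 0.0257. All these genes share the libraries and their scaling, and the likeness is a description over 6 libraries.

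The 10 genes are protein coding. Lamp1 lies on chromosome 8 (13159161 to 13175338), Lamp2 on X (38399647 to 38456460), Lgmn on 12 (102394082 to 102439728), Ctsb on 14 (63122462 to 63145923) and Ctsl on 13 (64361890 to 64370772) in GRCm38. Ctsa and Ctsz lie on chromosome 2 (164832872 to 164841032 and 174427494 to 174439039), Ctsc and Ctsd on 7 (88278024 to 88315861 and 142375910 to 142387827) and Ctsh on 9 (90054267 to 90076095). The exons of Ctsc, Ctsh, Lgmn and Lamp2 overlap no exon of another gene in GENCODE M21. In the other 6, exons of other genes cover part of the exonic bases, up to 34.4% in Ctsd (Gm49369, same strand) and 26.9% in Ctsl (Gm47123, antisense). Whether counting used strand is not stated in the labels, so reads in these stretches cannot be told apart.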

How the data were processed

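For each cell type the authors deposited 1 table with a read count and an FPKM value per gene and library. The submitters' processing notes name HISAT2, HTSeq and mm10, with no version; annotation and strandedness: not given in the sources used here. For each cell type, the deposited FPKM values of a gene were proportional to count over library total, within a relative tolerance of 1e-06. This held for 16805 of 16805 and 16954 of 16954 genes. The gene lengths behind the FPKM values were not checked. All value columns matched a sample, and 0 were left out.

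Counts were tested per cell type in R 4.3.3 with edgeR 4.0.16 (filterByExpr, TMM, quasi-likelihood F test, two-sided, Benjamini-Hochberg adjustment over all tested genes, threshold 0.05). CPM values are TMM-scaled; FPKM was used to compare genes. Standard errors are approximate, from the F statistic. The coefficient of biological variation was 0.275 (neutrophils) and 0.114 (monocytes), well above counting error at these depths. The procedure was tested on simulated data. The alternatives were DESeq2 1.42.0, limma-voom and limma-trend (limma 3.58.1), other size factors, no filter, the replicate number as a block and leaving out each library. No library pair matched within counting noise.

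The 10 genes, 8 lists of other lysosomal genes and 8 marker lists were chosen with earlier results of these data known. All 10 genes are named. From each lysosomal list, up to 3 called genes of smallest p are named, or up to 2 if none was called, as are the 5 genes per table most like the 10. Ctss, Cst3, Ly6g and Ccr2 were added after their values were seen. Promoter windows came from a RefSeq table (GRCm38.p6) and exon overlaps from GENCODE M21.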

Additional observations from a re-analysis of the deposited data

How the results depend on the processing

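The number of the 10 genes called in neutrophils was 0 higher, but 2 higher with DESeq2 and 0 to 2 when 1 library was left out. Over all neutrophil genes, 74 were called higher in edgeR, against 441 with DESeq2, 44 with limma-trend on log2(FPKM + 1) and 0 to 257 when 1 library was left out. Those called lower were 0 in edgeR, 106 with DESeq2, 1 with each limma-trend fit (pseudocount 1 or 0.1) and 0 to 31 when 1 library was left out. In monocytes the 10 genes gave 0 to 3 calls higher and 0 to 1 lower when 1 library was left out. Over all monocyte genes, 1354 were called higher (706 to 1687 with 1 library left out) and 681 lower (1185 with DESeq2, 177 to 1168 with 1 library left out). Fits without a library test fewer samples; the cause of the other shifts was not tested.

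With the replicate block, 4 neutrophil genes were called higher and 1 lower. In monocytes the replicate block called 2 of the 10 genes higher (Lamp2 and Ctsc, Ctsc with an adjusted p of 0.0153) and 1043 genes lower over all. Replicate numbers are shared across groups, but libraries of the same number correlated at 0.199, 0.00548 and 0.189 in neutrophils and 0.0651, −0.0267 and 0.0868 in monocytes. In both cell types, 4 of 6 libraries correlated best with their own number. The numbers were not taken as pairs.

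Reversals of sign were confined to genes that passed in no fit of that comparison, apart from Lamp1 in monocytes, and the cause was not tested. With 1 library left out, log2 fold changes ranged as follows. In neutrophils Ctsb was at −0.004 (without CTT replicate 2) to 0.203. Ctsd was at −0.011 with library totals, −0.001 in both limma-trend fits, and at −0.081 (without control replicate 3) to 0.241 with 1 library left out. Lamp1 was at −0.077 to 0.054, and positive without CTT replicate 1 or control replicate 1. In monocytes Ctsa was at −0.025 (without CTT replicate 2) to 0.183, and Ctsd at −0.188 to 0.091, positive without anti-Ly6G replicate 3 or CTT replicate 1. Ctsh was at −0.005 with library totals, −0.006 in both limma-trend fits, and −0.012 to 0.06 with 1 library left out, negative without CTT replicate 2 or anti-Ly6G replicate 3. Ctsl was at −0.187 to 0.023 (without CTT replicate 1) and Lamp1 at −0.033 (without CTT replicate 2) to 0.268 (without CTT replicate 1). Lgmn and Lamp2 kept their sign in both comparisons under all 14 alternatives each, at 0.52 to 0.60 and 0.60 to 0.74 in neutrophils and −0.48 to −0.28 and 0.34 to 0.54 in monocytes.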

Other observations

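Markers of further cell types, lists chosen with the lysosomal ones, were present in all groups. In neutrophils none of the nonclassical monocyte, dendritic cell, B cell, T and NK cell or erythroid markers was called in edgeR after CTT. At an unadjusted p below 0.05 they numbered 3 of 8, 2 of 9, 0 of 8, 1 of 9 and 10 of 11, and DESeq2 called 1 nonclassical marker higher and 4 erythroid markers lower. Erythroid markers had a median log2 fold change of −3.14 between CTT and control neutrophils, and −1.33 without control replicate 1. B cell markers summed to 5880 to 6487 CPM in CTT neutrophils and 2911 to 7333 CPM in control neutrophils.

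In monocytes, nonclassical monocyte markers were split, with 3 called higher and 4 lower of 8 with anti-Ly6G, and T and NK cell markers had 3 higher and 1 lower of 9. Of 8 B cell markers 2 were called lower, as was 1 of 11 erythroid markers. Log2 fold changes were negative for all 8 and all 11 of them, with 8 and 6 at an unadjusted p below 0.05 in edgeR. None of 9 dendritic cell markers was called in edgeR, with 0 at an unadjusted p below 0.05 and 0 called by DESeq2. B cell markers summed to 2746 to 3800 CPM with anti-Ly6G and 3595 to 5236 CPM with CTT alone.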
